A study of Mus musculus with 6 samples.

Results

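Endothelial cells line the inner surface of blood and lymphatic vessels. They seal the vessel wall through cadherin and claudin junctions, and they sense their surroundings through receptor tyrosine kinases of the VEGF and angiopoietin families. Their identity is held by a small set of transcription factors of the ETS and SOXF families together with TAL1 and LMO2, which they share with blood-forming cells. In the heart they sit beside the fibroblasts, and genes of both cell types can be read from RNA of a heart-derived culture. The genes described here are 40 genes used as markers or regulators of endothelial cells. They were taken by gene symbol, from a list drawn up with earlier results of these data known, and 40 of 40 were found among the 22063 genes of the table.

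RNA was sequenced from mouse primary cardiac fibroblasts, with 3 libraries in each of 2 groups. All the cells came from hearts of mice with floxed Tet3 alleles (Tet3 f/f), and all were exposed to TGF-β, which activates fibroblasts. The control group, GFP, received an adenovirus coding for green fluorescent protein. The other group, CRE, received an adenovirus coding for Cre recombinase, which cuts out DNA between loxP sites. The study's reagent list names EGFP, a green fluorescent protein, in both viruses. TET3 oxidises methylated cytosines in DNA, mostly at CpG sites. The age of the mice is not given in the sources used here. The study describes its replicates as biological, without saying whether the 3 libraries of a group came from separate mice or from separate cultures of the same isolate. The p-values measure the spread between these libraries. There is no comparison here with untreated cells.

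Total gene counts lay between 17002126 and 20343590 per library. Values are given as normalized read counts (CPM, read counts scaled to library size with TMM factors), in the order of replicates 1, 2 and 3. A count of 3 corresponded to between 0.156 and 0.187 CPM, counting error only, so levels at or under a count of 3 were not told from 0. Tet3 was counted 64.9, 54.4 and 52.0 CPM in GFP and 34.5, 35.9 and 33.6 CPM in CRE. Its groups did not overlap, and Tet3 was lower in CRE (log2 fold change -0.72, SE 0.08, adjusted p = 5.36e-05). Typical fibroblast genes were abundant in both groups, with a mean of 13729 CPM for Col1a1 and 408 CPM for Pdgfra in the GFP libraries. Endothelial transcripts were present beside these fibroblast genes, which go with the labelled cell type.

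The endothelial genes were mostly lower in CRE. Of the 40 genes, 38 had enough counts to be tested, and 32 of the 38 were lower, 3 were higher and 3 did not pass the threshold (edgeR's quasi-likelihood test, Benjamini-Hochberg adjusted p under 0.05 over 12862 genes). Over all tested genes 25.7% were called lower and 25.5% were called higher. Since the list was drawn up with earlier results known, these counts are a description and not independent evidence of its direction. The median log2 fold change, CRE over GFP, was -1.14 for the 38 genes and 0.01 for all tested genes. A log2 fold change of -1 or below was found for 23 of the 38 genes (60.5%) and for 4.67% of all tested genes. A value of -2 or below was found for 9 of the 38 (23.7%) and for 0.754% of all tested genes. In 34 of the 38 genes every CRE library lay below every GFP library, which held for 29.6% of all tested genes. In 3 genes every CRE library lay above every GFP library, against 30.0% of all tested genes. These are bulk measurements, in which fewer cells of a type and less RNA per cell cannot be told apart.

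**Figure D1:**
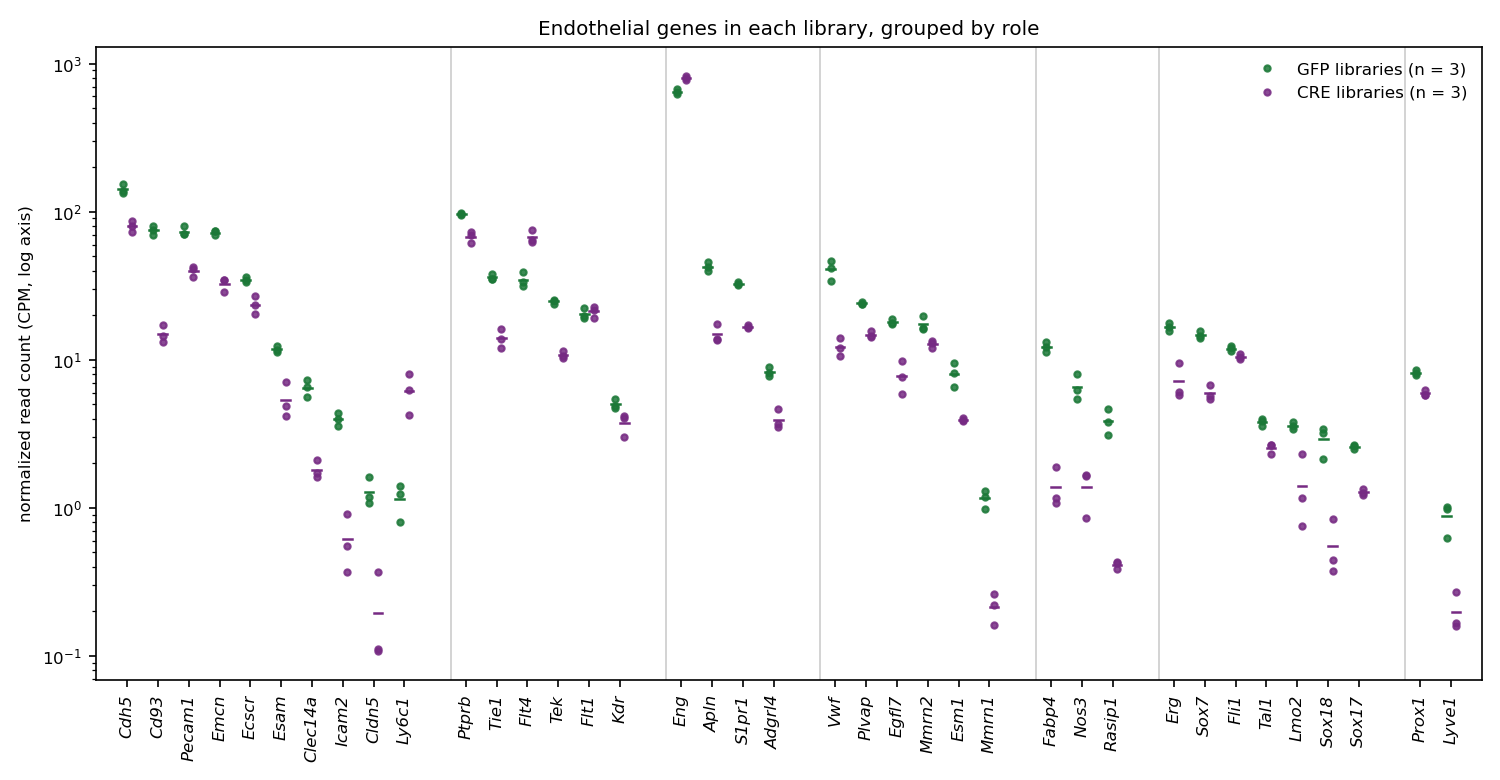
Normalized read count (CPM, log axis) of the 38 tested endothelial genes in each library, with green points for the 3 GFP libraries, purple points for the 3 CRE libraries and a short line at each group mean. Genes are grouped by role and separated by grey lines. In 34 genes the CRE points lie below the GFP points, and in 3 genes (Ly6c1, Flt4 and Eng) they lie above.

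The level of the genes in the GFP group differed widely when read per transcript length, in FPKM as deposited. Eng stood highest at 181 ± 6.91 FPKM (SD, n = 3). It was followed by Emcn at 41.7 ± 1.68, Cdh5 at 33.7 ± 2.43, Ecscr at 31.2 ± 1.31 and Pecam1 at 21.1 ± 1.47 FPKM. The libraries of Cdh5 and Ecscr overlapped, so this pair was not separated beyond the spread, while the other neighbours among these 5 were. A mean of at least 10 FPKM was seen in 11 of the 40 genes, 22 lay between 1 and 10 FPKM, and 7 lay under 1 FPKM. Of the 40 genes, 13 stood above 8.30 FPKM, the median of all tested genes. The lower end held Kdr at 0.799 ± 0.0551, Lyve1 at 0.286 ± 0.0717 and Mmrn1 at 0.245 ± 0.0333 FPKM. Kdr is the main VEGF receptor of blood endothelium, and on this scale it stood far under Cdh5 and Pecam1. Over the whole order, 10 of 39 pairs of neighbours had ranges that did not overlap.

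Junction and surface adhesion proteins hold endothelial cells to each other and to passing blood cells. Of 10 such genes, 9 were lower in CRE and Ly6c1 was higher. Cdh5 encodes VE-cadherin, the cadherin of endothelial junctions. It was counted 154, 133 and 138 CPM in GFP and 79.8, 73.3 and 87.1 CPM in CRE. The lowest GFP library was well above the highest CRE library (log2 fold change -0.82, SE 0.07, adjusted p = 9.87e-06). Pecam1 encodes CD31, which joins endothelial cells at the same borders, and it was counted 79.5, 70.3 and 70.5 CPM in GFP and 40.8, 36.1 and 42.0 CPM in CRE. The groups were again apart (log2 fold change -0.89, SE 0.07, adjusted p = 5.88e-06). Cldn5 and Esam encode proteins of the tight junction. Cldn5 was counted 1.18, 1.07 and 1.61 CPM in GFP and 0.107, 0.111 and 0.370 CPM in CRE. The CRE values rest on 2, 2 and 7 reads, so the size of this decrease is loosely fixed (log2 fold change -2.67, SE 0.46, adjusted p = 0.000803). Without CRE replicate 3 the log2 fold change was -3.48. Esam was counted 12.4, 11.2 and 11.7 CPM in GFP and 4.84, 4.15 and 7.08 CPM in CRE, with CRE replicate 3 the highest of its group (log2 fold change -1.13, SE 0.17, adjusted p = 0.000311).

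Among the other surface proteins, Cd93, a C-type lectin-like receptor of endothelial and some myeloid cells, had a large decrease with a small error. It was counted 80.1, 69.6 and 75.5 CPM in GFP and 14.4, 13.2 and 17.2 CPM in CRE. CRE stood at 19.9% of the GFP mean (log2 fold change -2.33, SE 0.09, adjusted p = 1.55e-07). Clec14a, a relative of Cd93, was counted 6.53, 5.58 and 7.27 CPM in GFP and 1.61, 1.72 and 2.11 CPM in CRE. The CRE libraries lay close together and far below (log2 fold change -1.83, SE 0.18, adjusted p = 2.02e-05). Emcn encodes endomucin, a sialomucin of capillary and venous endothelium, and was counted 74.0, 73.5 and 69.3 CPM in GFP and 28.6, 34.7 and 34.5 CPM in CRE. Its CRE mean was 45.1% of the GFP mean (log2 fold change -1.15, SE 0.07, adjusted p = 1.48e-06). Icam2, a ligand of leukocyte integrins, was counted 3.54, 4.34 and 4.0 CPM in GFP and 0.913, 0.554 and 0.370 CPM in CRE (log2 fold change -2.68, SE 0.28, adjusted p = 3.39e-05). Ecscr, a small endothelial membrane protein, was counted 33.6, 36.2 and 34.5 CPM in GFP and 20.4, 26.9 and 23.4 CPM in CRE. It fell less than the others of this group, and the groups did not overlap (log2 fold change -0.56, SE 0.09, adjusted p = 0.000575).

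Ly6c1, a GPI-anchored protein of the Ly6 family found on mouse endothelium and on monocytes, moved the other way. It was counted 0.808, 1.41 and 1.25 CPM in GFP and 6.23, 7.97 and 4.22 CPM in CRE. Every CRE library was above every GFP library (log2 fold change 2.39, SE 0.29, adjusted p = 7.4e-05). In reads this was 13, 25 and 24 against 116, 144 and 80. Ly6 genes are near copies of each other on chromosome 15, and reads could be shared among them in counting. The close copy Ly6c2 had 1 read in GFP replicate 1 and 0 in the other 5 libraries. Ly6a, which encodes Sca-1 and is not among the 40 genes, was chosen for mention after its values were seen, and was also higher in CRE, at 11.2, 19.4 and 17.6 CPM in GFP and 58.2, 47.0 and 57.9 CPM in CRE (log2 fold change 1.75, SE 0.16, adjusted p = 1.17e-05).

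The receptors of the angiopoietin and VEGF systems were split. Of 6 genes, Tie1, Tek and Ptprb were lower, Flt4 was higher, and Kdr and Flt1 did not pass the threshold. Tek encodes TIE2, the receptor of angiopoietins, and was counted 23.8, 25.0 and 25.5 CPM in GFP and 11.4, 10.3 and 10.6 CPM in CRE. The libraries of each group were tight and far apart (log2 fold change -1.20, SE 0.08, adjusted p = 1.64e-06). Tie1, its partner receptor, was counted 38.2, 34.9 and 35.2 CPM in GFP and 12.0, 13.9 and 16.2 CPM in CRE. On average CRE stood at 38.8% of GFP (log2 fold change -1.36, SE 0.10, adjusted p = 3.15e-06). Ptprb encodes VE-PTP, a phosphatase that acts on TIE2 and VE-cadherin, and was counted 96.6, 98.6 and 94.8 CPM in GFP and 69.6, 72.6 and 61.5 CPM in CRE. Its decrease was smaller and the groups did not overlap (log2 fold change -0.51, SE 0.06, adjusted p = 7.73e-05).

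Flt4 encodes VEGFR3, the receptor of VEGF-C and VEGF-D, best known from lymphatic endothelium. It was counted 33.8, 39.3 and 31.4 CPM in GFP and 64.4, 75.5 and 62.4 CPM in CRE. Every CRE library was above every GFP library, and the CRE mean came to 194% of the GFP mean (log2 fold change 0.95, SE 0.09, adjusted p = 1.99e-05). Flt1 encodes VEGFR1, a receptor that binds VEGF-A with high affinity. It was counted 22.3, 19.7 and 19.3 CPM in GFP and 22.9, 21.8 and 19.0 CPM in CRE. The groups overlapped, and the difference was within the spread (log2 fold change 0.06, SE 0.09, adjusted p = 0.633). Kdr encodes VEGFR2 and was counted 5.41, 4.90 and 4.73 CPM in GFP and 4.19, 2.99 and 4.01 CPM in CRE. Every CRE library was below every GFP library, but the difference missed the threshold (log2 fold change -0.42, SE 0.16, adjusted p = 0.0546). With 54 to 91 reads per library, Kdr was thinly counted.

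**Figure D2:**
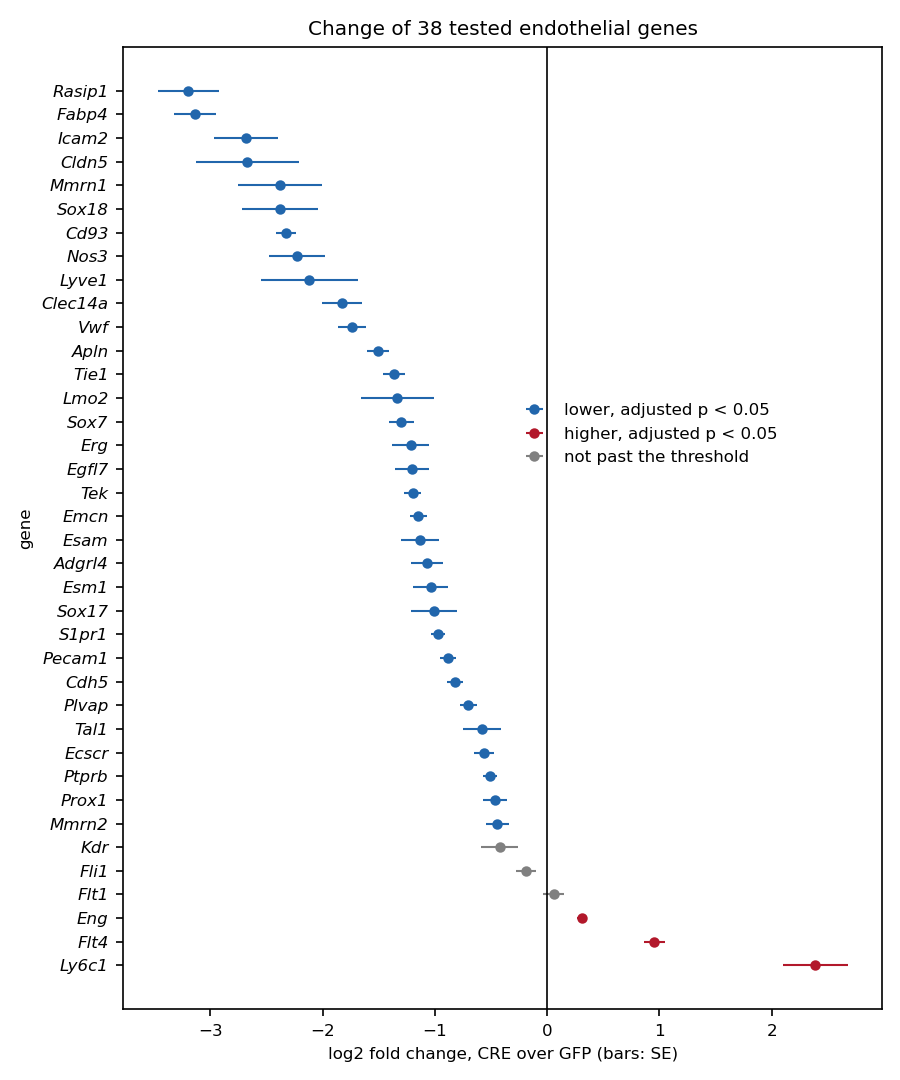
Log2 fold change (CRE over GFP, x axis) of the 38 tested endothelial genes (y axis), sorted from lowest to highest, with bars of 1 SE from edgeR's quasi-likelihood test. Blue points are the 32 genes called lower, red points the 3 called higher and grey points the 3 not past the threshold. The values run from -3.20 for Rasip1 to 2.39 for Ly6c1.

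Eng encodes endoglin, a co-receptor of the TGF-β and BMP family that endothelial cells, and also fibroblasts and other stromal cells, make. It was by far the most counted of the 40 genes, at 641, 671 and 621 CPM in GFP and 774, 827 and 794 CPM in CRE. Every CRE library was above every GFP library, and the difference was small (log2 fold change 0.31, SE 0.05, adjusted p = 0.00029). Eng took 40.3% to 42.7% of the summed CPM of the 40 genes in the GFP libraries and 60.0% to 61.4% in the CRE libraries. The sum of all 40 genes was 1565 ± 31.0 CPM (SD, n = 3) in GFP and 1315 ± 37.8 CPM in CRE, or 84.0%. Without Eng, a sum added after the values were seen, it was 921 ± 26.2 CPM in GFP and 516 ± 15.9 CPM in CRE, or 56.1%. On the annotation, some exon bases of Eng are shared with Fpgs on the opposite strand.

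The other tested genes of this group of receptors and their ligand were lower. S1pr1 encodes a receptor of sphingosine 1-phosphate that steadies endothelial junctions, and was counted 33.6, 32.5 and 31.9 CPM in GFP and 16.3, 17.1 and 16.5 CPM in CRE. It was among the most even of the 40 genes within each group (log2 fold change -0.97, SE 0.06, adjusted p = 1.56e-06). Apln encodes apelin, a secreted peptide of sprouting endothelium, and was counted 39.5, 42.5 and 45.8 CPM in GFP and 13.7, 13.7 and 17.5 CPM in CRE. Its CRE mean was 35.2% of the GFP mean (log2 fold change -1.51, SE 0.10, adjusted p = 1.75e-06). Its receptor gene Aplnr had 0 to 3 reads per library and was not tested. Adgrl4, an adhesion G protein-coupled receptor also called ELTD1, was counted 8.95, 7.78 and 8.16 CPM in GFP and 4.62, 3.49 and 3.70 CPM in CRE (log2 fold change -1.07, SE 0.14, adjusted p = 0.000141).

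Secreted, matrix and luminal proteins were lower in 6 of 6 tested genes. Vwf encodes von Willebrand factor, the clotting protein stored in endothelial granules and in platelets. It was counted 46.7, 34.2 and 41.5 CPM in GFP and 10.6, 12.0 and 13.9 CPM in CRE. The GFP libraries spread more than those of most members, and the CRE libraries lay well below (log2 fold change -1.74, SE 0.13, adjusted p = 3.13e-06). Mmrn1 encodes multimerin 1, also a protein of platelets and endothelium, and had 19 to 21 reads per GFP library against 3, 4 and 5 in CRE, so its fitted change rests on very few CRE reads. In CPM it was counted 1.31, 1.18 and 0.987 CPM in GFP and 0.161, 0.222 and 0.264 CPM in CRE (log2 fold change -2.38, SE 0.37, adjusted p = 0.00042). Its relative Mmrn2, a matrix protein that binds CD93 and CLEC14A, was counted 19.7, 16.4 and 16.1 CPM in GFP and 12.1, 13.3 and 12.9 CPM in CRE. Its decrease was small, with no overlap between the groups (log2 fold change -0.44, SE 0.10, adjusted p = 0.00399).

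Egfl7, a secreted protein laid down around vessels, was counted 17.7, 17.5 and 18.7 CPM in GFP and 5.86, 7.70 and 9.87 CPM in CRE. The CRE libraries were uneven, with replicate 3 the highest (log2 fold change -1.20, SE 0.15, adjusted p = 0.000105). Its exons share bases with Agpat2, Gm20532 and the microRNA genes Mir126a and Mir126b. Esm1 encodes endocan, a proteoglycan of tip cells at sprouting vessels, and was counted 6.59, 9.47 and 8.16 CPM in GFP and 3.87, 4.04 and 3.91 CPM in CRE. Here the GFP libraries were uneven and the CRE libraries were almost level (log2 fold change -1.04, SE 0.15, adjusted p = 0.000297). Plvap forms the diaphragms of fenestrae and caveolae and was counted 23.8, 24.5 and 23.8 CPM in GFP and 14.4, 14.3 and 15.6 CPM in CRE (log2 fold change -0.70, SE 0.07, adjusted p = 2.68e-05). Gpihbp1, which carries lipoprotein lipase across capillary endothelium, had 3, 5 and 9 reads in GFP and 0, 0 and 1 in CRE. It had too few reads to be tested.

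The 3 intracellular enzymes and effectors were lower, and Rasip1 and Fabp4 had the lowest log2 fold changes of the 38 tested genes. Rasip1, a RAS-interacting protein needed for vessel lumens, was counted 3.11, 4.62 and 3.79 CPM in GFP and 0.430, 0.388 and 0.422 CPM in CRE. On average CRE stood at 10.8% of GFP, which rests on 7 or 8 reads per library (log2 fold change -3.20, SE 0.27, adjusted p = 8.28e-06). Rasip1 lies at chr7:45627488-45639093 (GRCm38, plus strand), where its exons share bases with Izumo1 on the same strand and with the antisense genes A030001D20Rik and Gm45437. Fabp4, a fatty acid binding protein of capillary endothelium and of adipocytes, was counted 12.2, 11.3 and 13.2 CPM in GFP and 1.07, 1.16 and 1.90 CPM in CRE. In CRE 11.3% of the GFP mean was counted (log2 fold change -3.14, SE 0.19, adjusted p = 8.54e-07). Of the 6 adipocyte markers, Adipoq and Lep had 0 reads in each of the 6 libraries, Plin1 and Cidec had 0 to 2 reads per library, Lpl was at 43.5 and 40.8 CPM as the GFP and CRE means, and Pparg was lower in CRE (log2 fold change -1.11, SE 0.31, adjusted p = 0.0125). The call on Pparg was lost without GFP replicate 3, CRE replicate 1 or CRE replicate 3, with adjusted p from 0.0505 to 0.0535. The part of adipocyte transcripts in the result for Fabp4 was not tested. Nos3 encodes endothelial nitric oxide synthase and was counted 7.96, 6.26 and 5.40 CPM in GFP and 0.860, 1.66 and 1.64 CPM in CRE (log2 fold change -2.23, SE 0.25, adjusted p = 4.61e-05). CRE replicate 1 was the lowest, and the groups did not overlap. Exons of Nos3 share bases with Atg9b and the antisense gene Gm15587 on the opposite strand.

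Of the 7 transcriptional regulators, 6 were lower and Fli1 did not pass. Erg and Fli1 are the ETS factors most tied to endothelial identity. Erg was counted 15.6, 17.6 and 16.6 CPM in GFP and 5.80, 6.09 and 9.50 CPM in CRE. CRE replicate 3 stood above the other two CRE libraries and still below every GFP library (log2 fold change -1.22, SE 0.16, adjusted p = 0.000161). Fli1 was counted 11.4, 12.0 and 12.3 CPM in GFP and 10.05, 10.9 and 10.5 CPM in CRE. The groups did not overlap, but the difference missed the threshold (log2 fold change -0.19, SE 0.09, adjusted p = 0.112).

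The SOXF genes Sox7, Sox17 and Sox18 act together in vessel development. Sox7 was counted 14.5, 13.9 and 15.6 CPM in GFP and 5.69, 5.43 and 6.76 CPM in CRE (log2 fold change -1.30, SE 0.11, adjusted p = 8.99e-06). Sox17 was counted 2.61, 2.48 and 2.65 CPM in GFP and 1.34, 1.22 and 1.27 CPM in CRE, with little spread in either group (log2 fold change -1.01, SE 0.21, adjusted p = 0.00221). Sox18, mutated in mice and people with vessel and lymphatic defects, was counted 3.42, 2.14 and 3.22 CPM in GFP and 0.376, 0.443 and 0.845 CPM in CRE. It had the lowest log2 fold change of the 7 regulators (log2 fold change -2.38, SE 0.34, adjusted p = 0.00022). The 3 SOXF genes were thus each lower, and CRE lay below GFP in every library of each. Tal1 and its partner Lmo2 form a complex that starts the blood and endothelial programmes. Tal1 was counted 3.98, 3.83 and 3.59 CPM in GFP and 2.31, 2.66 and 2.64 CPM in CRE, and its call did not hold with every setting (log2 fold change -0.58, SE 0.17, adjusted p = 0.0147). With library size alone its adjusted p was 0.0529, and with DESeq2 it was 0.0509. Lmo2 was counted 3.79, 3.55 and 3.43 CPM in GFP and 0.752, 1.16 and 2.32 CPM in CRE. The CRE libraries differed by over a factor of 3 among themselves, and all lay below the GFP libraries (log2 fold change -1.33, SE 0.32, adjusted p = 0.00596). Without CRE replicate 3 the log2 fold change of Lmo2 was -1.90. The summed CPM of the 7 regulators was 56.1 ± 1.12 in GFP and 29.3 ± 3.97 in CRE, or 52.3%.

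Prox1, the transcription factor that sets lymphatic identity, was counted 7.83, 8.12 and 8.52 CPM in GFP and 5.80, 6.20 and 5.76 CPM in CRE (log2 fold change -0.46, SE 0.11, adjusted p = 0.00514). Its call did not hold on the FPKM values, where the adjusted p was 0.0772 with limma on log2(FPKM + 1). The hyaluronan receptor gene Lyve1, a marker of lymphatic endothelium and of some macrophages, was lower from a mean of 0.875 CPM in GFP to 0.198 CPM in CRE, with 10, 18 and 19 reads in GFP and 5, 3 and 3 in CRE (log2 fold change -2.12, SE 0.43, adjusted p = 0.00215). With 2 CRE libraries at the count of 3, the size of this decrease is not fixed. Flt4, which also has a lymphatic role, was higher, as given above. Exons of Prox1 share bases with the antisense gene Prox1os, and exons of Ecscr and Sox17 also share bases with a gene on the opposite strand.

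The bases just before the start sites were read for the genes with a promoter in the RefSeq table (GRCm38.p6), because TET3 acts mostly on CpG sites. DNA methylation itself was not analysed here. Of the 40 genes, 19 were found there, with 26 start sites. Over the 250 bases before each start, the 26 promoters held 0 to 23 CpG sites with a median of 5.5, and all 32851 promoters had a median of 6. The 20 promoters of 14 lower genes held 1 to 20 CpG sites (median 5.5). The promoters of the 2 genes that did not pass (Kdr and Flt1) held 16 and 23, and the 4 promoters of the 3 higher genes held 0 to 16. As examples of lower (Tek, Apln), higher (Eng, Ly6c1) and neither (Flt1), 5 windows that touch no annotated part of their own gene follow, 5′ to 3′ on the strand of the gene, with CpG sites in capitals. They lie at chr4:94739039-94739288 (Tek, plus), chrX:48034854-48035103 (Apln, minus), chr2:32646345-32646594 (Eng, plus), chr15:75048838-75049087 (Ly6c1, minus) and chr5:147726012-147726261 (Flt1, minus).
Tek: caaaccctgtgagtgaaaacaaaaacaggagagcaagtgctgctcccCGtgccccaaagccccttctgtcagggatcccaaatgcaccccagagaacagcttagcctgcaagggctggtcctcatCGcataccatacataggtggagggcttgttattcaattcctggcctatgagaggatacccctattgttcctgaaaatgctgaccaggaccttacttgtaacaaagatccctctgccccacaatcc
Apln: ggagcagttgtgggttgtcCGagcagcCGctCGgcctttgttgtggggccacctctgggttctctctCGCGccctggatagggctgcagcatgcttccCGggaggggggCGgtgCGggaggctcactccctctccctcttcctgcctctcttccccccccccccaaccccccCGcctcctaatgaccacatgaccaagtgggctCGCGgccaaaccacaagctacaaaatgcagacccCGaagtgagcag
Eng: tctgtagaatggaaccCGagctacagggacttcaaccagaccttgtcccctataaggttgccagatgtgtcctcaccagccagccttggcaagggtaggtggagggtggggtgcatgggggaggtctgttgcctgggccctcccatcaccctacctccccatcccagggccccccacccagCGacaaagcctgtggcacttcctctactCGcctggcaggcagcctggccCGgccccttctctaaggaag
Ly6c1: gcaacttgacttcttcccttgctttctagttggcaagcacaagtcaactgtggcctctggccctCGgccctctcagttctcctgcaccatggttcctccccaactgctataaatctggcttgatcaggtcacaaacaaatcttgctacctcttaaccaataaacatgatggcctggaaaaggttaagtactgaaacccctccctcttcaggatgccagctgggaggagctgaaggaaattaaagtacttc
Flt1: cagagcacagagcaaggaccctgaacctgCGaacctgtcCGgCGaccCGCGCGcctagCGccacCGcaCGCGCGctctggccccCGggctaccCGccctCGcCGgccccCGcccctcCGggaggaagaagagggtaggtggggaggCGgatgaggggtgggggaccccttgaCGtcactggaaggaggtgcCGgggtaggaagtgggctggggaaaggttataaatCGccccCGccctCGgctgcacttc
Tek has 2 CpG sites in this window and Apln has 12, and both genes were lower. Eng has 4 and Ly6c1 has 1, and both were higher. Flt1, with 23, had the most of the 26 promoters. Letters of ETS-type sites were also searched on both strands. CCGGAA was present in 2 of the 26 promoters and in 12.0% of all promoters. AGGAAG was present in 11 of the 26 (42.3%) and in 29.5% of all promoters. The SOX-type letters ACAAT were present in 5 of the 26 (19.2%) and in 27.7% of all promoters. The GATA-type letters AGATAA were present in 2 of the 26 and in 9.99% of all promoters. A match is a run of letters and not a bound site, and genes with several starts count more than once.

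A further 45 genes used as endothelial markers were listed, 44 of which were in the table. This list was also chosen with earlier results of these data known, so its counts are a description and not independent evidence. Of 43 tested, 30 were lower (69.8%) and 7 were higher (16.3%), beside 25.7% and 25.5% of all tested genes, and the median log2 fold change was -0.93. The lowest were Dll4 (log2 fold change -3.21, SE 0.39, adjusted p = 8.58e-05), the Notch ligand of tip and arterial cells, Ushbp1 (log2 fold change -2.87, SE 0.48, adjusted p = 0.000696), Gimap4 (log2 fold change -2.29, SE 0.34, adjusted p = 0.000311) and the kinase gene Bmx (log2 fold change -2.05, SE 0.31, adjusted p = 0.000372). Dll4 was counted 4.23, 2.93 and 4.0 CPM in GFP and 0.107, 0.388 and 0.686 CPM in CRE, with no overlap, and had 2, 7 and 13 reads in CRE. Ushbp1 had 3, 1 and 2 reads in CRE, at or under the count of 3 that is not told from 0, so the size of its fitted change is not fixed. Among the 7 higher genes, picked after their values were seen, Aqp1 encodes a water channel and was counted 5.97, 5.86 and 8.47 CPM in GFP and 19.1, 31.3 and 16.2 CPM in CRE (log2 fold change 1.70, SE 0.24, adjusted p = 0.00024). The next were Rnd1 (log2 fold change 0.93, SE 0.10, adjusted p = 3.19e-05) and Efnb2 (log2 fold change 0.46, SE 0.06, adjusted p = 0.000123), the arterial ephrin. The summed CPM of this list in CRE was 86.1% of the GFP mean, and 96.3% on CPM of the raw total. Selp was its most counted gene, with 18.9% of the sum in GFP. It did not pass the threshold (log2 fold change -0.16, SE 0.11, adjusted p = 0.233).

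**Figure D3:**
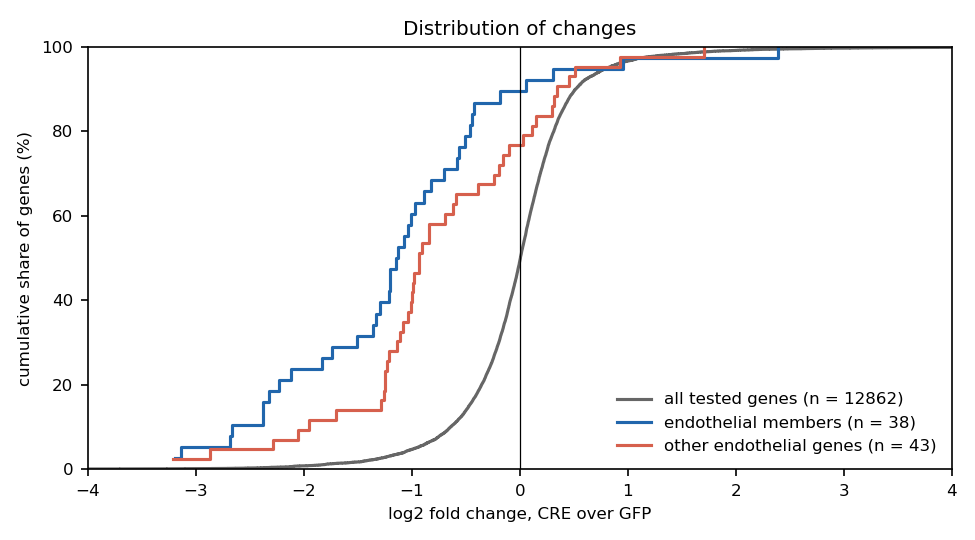
Cumulative share of genes (%, y axis) at or below each log2 fold change (CRE over GFP, x axis) for all 12862 tested genes (grey), the 38 tested endothelial genes (blue) and 43 other endothelial genes (red). The blue and red lines lie left of the grey line below 0, with medians of -1.14, -0.93 and 0.01 in the blue, red and grey lines.

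Ligands and partners of the receptors were mostly lower by small amounts. Of 20 listed genes, 17 were tested, 11 were lower (64.7%) and 5 were higher (29.4%), beside 25.7% and 25.5% of all tested genes, and the median log2 fold change was -0.24. With library size alone, 6 were lower (35.3%) and 5 were higher (29.4%), beside 16.2% and 43.0% of all tested genes, and the median was -0.08, so the split depends on the scaling. The lowest values were those of Vegfb (log2 fold change -1.36, SE 0.13, adjusted p = 1.83e-05), Angpt2 (log2 fold change -0.99, SE 0.09, adjusted p = 1.58e-05), Angpt1 (log2 fold change -0.96, SE 0.16, adjusted p = 0.000662) and the receptor gene S1pr3 (log2 fold change -0.88, SE 0.19, adjusted p = 0.00332). Angpt1 is the activating ligand of TIE2, and it was counted 11.2, 17.2 and 16.0 CPM in GFP and 6.66, 8.42 and 7.76 CPM in CRE. The genes of both VEGFR3 ligands were lower while Flt4 was higher, with log2 fold change -0.81, SE 0.11, adjusted p = 0.000151 for Vegfd and log2 fold change -0.57, SE 0.07, adjusted p = 0.000101 for Vegfc. In the sphingosine 1-phosphate system, S1pr1 and S1pr3 were lower. The kinase gene Sphk1 (log2 fold change 0.59, SE 0.06, adjusted p = 1.59e-05), the exporter gene Spns2 (log2 fold change 0.70, SE 0.16, adjusted p = 0.00396) and S1pr2 (log2 fold change 0.50, SE 0.07, adjusted p = 0.000156) were higher. These genes were picked for their link to the receptors described above.

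Markers of other cell types were counted in the same way, and the shares of all tested genes called lower (25.7%) and higher (25.5%) are the background for each list. Of 10 fibroblast markers, 9 were lower and 1 did not pass, with a median log2 fold change of -0.77, and their summed CPM ranged from 44697 to 47817 in the GFP libraries and from 25201 to 26992 in the CRE libraries. In CRE the sum stood at 56.5% of its GFP mean, and Col1a1, Col1a2 and Fn1 made up 90.2% of it in GFP. The other 7 fibroblast markers stood at 66.6% of GFP, and the marker that did not pass was Thy1 (log2 fold change -0.10, SE 0.07, adjusted p = 0.281). The markers with the largest changes were Tcf21 (log2 fold change -1.80, SE 0.09, adjusted p = 4.21e-07), Lum (log2 fold change -1.46, SE 0.09, adjusted p = 1.26e-06), Fn1 (log2 fold change -1.14, SE 0.05, adjusted p = 3.39e-07) and Pdgfra (log2 fold change -0.87, SE 0.12, adjusted p = 0.000161). The sum of the endothelial genes stood at 84.0% with Eng, its dominant gene, and at 56.1% without it. Of 10 mural cell markers tested, 5 were lower and 1 higher, with 4 not past the threshold, and their sum ranged from 1021 to 1163 CPM in GFP and from 865 to 885 CPM in CRE. Pdgfrb made up 90.4% of this sum in GFP and 89.2% in CRE, and the other mural markers together stood at 91.6% of GFP. The mural markers with the largest changes were Rgs5 (log2 fold change -1.19, SE 0.10, adjusted p = 9.04e-06), Abcc9 (log2 fold change -1.08, SE 0.29, adjusted p = 0.00982), Cspg4 (log2 fold change 1.03, SE 0.23, adjusted p = 0.00378) and Des (log2 fold change -0.94, SE 0.25, adjusted p = 0.00937), and Cspg4 was the higher one. Of 14 leukocyte and macrophage markers, 7 were tested, 4 were lower and 3 did not pass. Their sum ranged from 61.0 to 68.7 CPM in GFP and from 35.9 to 39.1 CPM in CRE, carried mostly by Cd14 (28.1 and 13.4 CPM as the GFP and CRE means) and Lyz2 (23.5 and 14.6 CPM). Adgre1 (log2 fold change -1.27, SE 0.25, adjusted p = 0.00206), Laptm5 (log2 fold change -1.08, SE 0.28, adjusted p = 0.00924), Cd14 (log2 fold change -1.07, SE 0.10, adjusted p = 1.19e-05) and Lyz2 (log2 fold change -0.69, SE 0.08, adjusted p = 6.49e-05) were the 4 that passed. The pan-leukocyte gene Ptprc and the myeloid regulator gene Spi1 were near 0, with 0.440 and 0.270 CPM for Ptprc and 0.0376 and 0.0545 CPM for Spi1 as the GFP and CRE means. The part of these cell types in the result was not tested.

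Of 8 megakaryocyte and platelet markers, 5 were tested and none passed in edgeR with TMM scaling and the 6 libraries, with 3 at an unadjusted p under 0.05. This count depended on the setting. With DESeq2, with the replicate block, without GFP replicate 1 and without GFP replicate 3, 1 was lower. That is 20.0% of the 5, where these settings called 23.5%, 26.2%, 25.3% and 22.3% of all tested genes lower, in that order. With library size alone, in both FPKM fits and without GFP replicate 2, 1 was higher. That is 20.0% of the 5, where library size alone called 43.0% of all tested genes higher, the FPKM fits 38.7% and 38.8%, and the fit without GFP replicate 2 22.6%. Their sum ranged from 4.97 to 8.0 CPM in GFP and from 4.44 to 5.10 CPM in CRE, and Gata1 had 0 reads in each of the 6 libraries. The part of platelet transcripts in the results for Vwf and Mmrn1, which platelets share, was not tested. Of 6 adipocyte markers, 2 were tested and 1 was lower, with a sum from 44.3 to 47.3 CPM in GFP and from 40.4 to 42.8 CPM in CRE. Lpl made up 95.7% of that sum in GFP, and the direction of the sum turned with the scaling, with CRE at 91.9% of GFP on TMM CPM and at 103% on CPM of the raw total. Of 10 cardiomyocyte markers, none had enough reads to be tested, and their sum stayed between 0.733 and 1.04 CPM in the 6 libraries. Of 7 mesothelial markers, 5 were tested, 1 was lower and 3 higher, with 1 not past the threshold, at sums from 8.52 to 9.75 CPM in GFP and from 8.50 to 12.4 CPM in CRE. The lower marker was Wt1 (log2 fold change -2.10, SE 0.21, adjusted p = 2.02e-05), and the higher ones were Krt19 (log2 fold change 1.79, SE 0.36, adjusted p = 0.00219), Upk1b (log2 fold change 1.34, SE 0.33, adjusted p = 0.00708) and Upk3b (log2 fold change 0.75, SE 0.26, adjusted p = 0.0347). This count depended on the setting. It was 2 higher of 5 tested with limma-voom, without GFP replicate 2 and without CRE replicate 1. These settings called 25.6%, 22.6% and 22.1% of all tested genes higher, in that order. It was 2 higher of 6 tested without GFP replicate 3 or CRE replicate 2, beside 21.0% and 21.6% of all tested genes. With at least 10 counts in every library it was 1 higher of 3 tested, beside 25.9% of all tested genes. The list median was 0.75, and it was 0.29 without CRE replicate 2 and 0.07 with that filter.

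**Figure D4:**
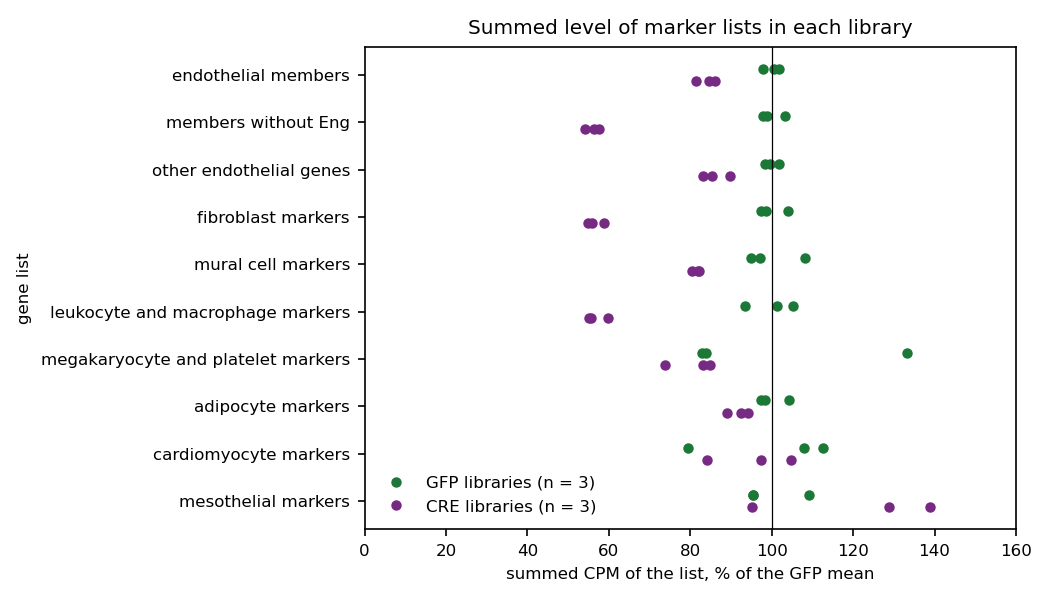
Summed CPM of each marker list in each library, as percent of the GFP mean (x axis), for 10 lists or subsets (y axis), with green points for the 3 GFP libraries and purple points for the 3 CRE libraries. The CRE libraries average 84.0% for the 40 endothelial genes and 56.1% for the same genes without Eng. They average 86.1% for the other endothelial genes and 56.5% for the fibroblast markers, while the cardiomyocyte markers, at about 1 CPM, overlap between groups.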

How the data were processed

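RNA was sequenced from 6 libraries of mouse cardiac fibroblasts, 3 GFP and 3 CRE, grouped and numbered by sample title. The deposited raw counts per gene were made by the authors with HTSeq-count, after trimming (Trimmomatic) and alignment to GRCm38 (HISAT2), as their methods state. FPKM values per library were obtained by the authors with Cufflinks and deposited beside the counts. Tool versions and the use of strand in counting are not given in the sources used here, so genes that share exon bases (7 of the 40) are uncertain. The labels and the methods name different RNA and library kits. The table also holds the authors' group means, fold changes, p-values and term annotations, which were not used.

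Counts were tested in R 4.3.3 with edgeR 4.0.16 (filterByExpr with minimum count 10 and minimum total 15, TMM factors 0.944 to 0.947 in GFP and 1.05 to 1.06 in CRE, two-sided quasi-likelihood test, Benjamini-Hochberg adjustment over 12862 genes). The SE was obtained from the fold change and F (absolute log2 value over root F). The fit was first tested on simulated counts in which a small share of genes was changed, up or down at random. In the data 25.7% of tested genes were called lower and 25.5% higher, so the simulation does not test the scaling of these data. The members and gene lists were chosen with earlier results of these data known. Each of the 40 genes is accounted for, with library values for those past the threshold at a mean of at least 1 CPM in the higher group and for Pecam1, Cdh5, Tie1, Tek, Kdr, Vwf and Erg. From other lists, up to 4 genes with the largest absolute log2 fold change past the threshold are named, and any further gene was chosen after its values were seen. Fli1 and Flt1 were given in the same way because few members missed the threshold. Alternatives were RLE and upper-quartile scaling, library size alone, other filters, DESeq2 1.42.0, limma 3.58.1 (voom, log2(FPKM + 1) and log2(FPKM + 0.1)), a replicate block, the fold limits of the study's methods (1.5 and 0.66), and each library left out in turn. Positions and exon overlaps are from GENCODE M21, and promoter sequences from RefSeq (GRCm38.p6). Figures were drawn with matplotlib 3.10.9.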

Additional observations from a re-analysis of the deposited data

How the results depend on the processing

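No member changed direction under any alternative that could be fitted. The count of lower members was 26 to 33 over the edgeR, DESeq2 and limma alternatives and 3 members were higher in each. That is 78.9% to 84.2% of the tested members lower and 7.5% to 9.38% higher. Over all tested genes, the same settings called 14.8% to 26.2% lower and 19.0% to 43.0% higher. The 26 came with at least 10 counts in every library, where 32 members were tested, and the 33 came with no filter beyond 1 count, where Gpihbp1 passed (adjusted p 0.0123) and Aplnr did not (0.348). With the fold limits added, 27 members were lower and 2 were higher, against 10.3% and 7.52% of all tested genes. The member median moved to -0.98 with library size alone, -0.64 with limma on log2(FPKM + 1) and -0.90 with limma on log2(FPKM + 0.1). In these fits the median of all genes was itself 0.17, 0.13 and 0.17, and library size alone called 2083 genes lower and 5529 higher over all genes, against 3306 and 3277. A pseudocount understates changes of low genes. The summed level of the members in CRE was 84.0% of GFP on TMM CPM and 94.0% on CPM of the raw total. Without Eng these values were 56.1% and 62.7%. Tal1 missed the threshold in 5 alternatives (adjusted p 0.0507 without CRE replicate 1, 0.0529 with library size alone, 0.0509 with DESeq2, 0.0808 and 0.103 on FPKM) and Prox1 in 2 (0.0772 and 0.106 on FPKM). Leaving out each library in turn gave medians of -1.19 to -1.05, 31 to 32 lower and 3 higher members. These fits called 22.1% to 25.3% of all tested genes lower and 21.0% to 24.6% higher.

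Same-numbered GFP and CRE libraries deviated together at a correlation of 0.046, 0.18 and -0.018. Pairs with unlike numbers lay between -0.12 and 0.071, and replicate 2 with its own number had the highest value of all pairs. With 3 libraries per group, these values cannot settle whether the numbers pair the libraries. With the replicate block, 32 members were lower (84.2%) and 3 higher (7.89%), against 26.2% and 25.3% of all tested genes, with a median of -1.15.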

Other observations

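The libraries of a group were not alike in which stood highest. Over 38 members with at least 10 counts in the group, GFP replicates 1, 2 and 3 were the highest of their group in 17, 11 and 10 members and the lowest in 12, 14 and 12. Over 32 such members, CRE replicates 1, 2 and 3 were the highest in 5, 13 and 14 members and the lowest in 17, 10 and 5. CRE replicate 3 was the highest CRE library for Erg, Lmo2, Egfl7, Esam and Tie1, among others. CRE replicate 2 was the highest for Ecscr, Emcn, Ptprb, S1pr1, Flt4 and Eng, among others. CRE replicate 1 was the lowest for Erg, Lmo2, Egfl7, Nos3 and Tie1, among others. The same order over all tested genes was not counted. These members share libraries and scaling, and no test was made of this order.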
